A study of Mus musculus with 16 samples.

Results

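The genes described here encode the protein components of the cytosolic ribosome, and their transcripts were compared between livers with and without the hepatocyte glucagon receptor. A gene was taken as a member when its symbol was Rpl or Rps followed by a number, with at most 1 further letter a, x or l, or when it was Rplp0, Rplp1, Rplp2 or Rpsa. Pseudogenes were left out. The rule gave 83 of the 41079 genes in the count table: 32 of the small 40S subunit, 48 of the large 60S subunit and the 3 proteins of the P-stalk.

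Each cytosolic ribosome holds a single copy of nearly every one of these proteins, so their synthesis is tuned as a set. Many of the mRNAs begin with a cytosine followed by a run of pyrimidines, the 5′ terminal oligopyrimidine (TOP) tract, through which LARP1 and mTORC1 adjust their stability and translation to nutrients and hormones. In liver, where hepatocytes make most plasma proteins, insulin and amino acids act on mTORC1, and glucagon acts through its own receptor, GCGR, against several insulin actions.

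Liver RNA was sequenced from C57BL/6J mice at 20 to 22 months of age, in 4 groups of 4 mice. All mice carried a floxed Gcgr allele. LKO mice also carried Albumin-Cre, which acts in hepatocytes from early life. The paper describes the receptor as missing during both development and adulthood, and reports lower Gcgr expression in the liver. CRE- mice had no Cre, and male LKO were compared with male CRE-, and female LKO with female CRE-, to ask what loss of hepatic GCGR did in each sex. The labels give each replicate as a separate mouse. No group carried Albumin-Cre without the floxed allele, so Cre itself and loss of Gcgr cannot be told apart.

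Gcgr, the targeted gene, was read first, in CPM, reads scaled to a common normalised library size. In males it was 190.4, 193, 127 and 189.6 CPM in CRE- mice and 116, 136, 129.9 and 160.3 CPM in LKO mice. In females it was 162, 208, 201 and 180.0 CPM in CRE- mice and 48.8, 132, 119 and 93.6 CPM in LKO mice. Every female LKO value was below every female CRE- value, whereas in males CRE- replicate 3 lay among the LKO values. The means were 175 ± 31.8 against 136 ± 18.3 CPM in males and 188 ± 20.9 against 98.2 ± 36.6 CPM in females (CRE- against LKO, SD, n = 4). By the edgeR quasi-likelihood test over 16742 genes, Gcgr fell by 0.93 on the log2 scale in females (SE 0.25, adjusted p = 0.0443), and in males the fitted change was -0.37 (SE 0.24, adjusted p = 0.671). Reads from exons outside the deleted segment, and from cells other than hepatocytes, are counted too.

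The female Gcgr call was close to the threshold of 0.05 by edgeR. DESeq2 (-0.91, adjusted p = 0.00820) and limma-voom (-0.80, adjusted p = 0.00859) called it as well. Without male CRE- replicate 3 and female LKO replicate 1 together, edgeR gave -0.69 and kept the call (adjusted p = 0.0370). Leaving out a single female mouse moved the log2 fold change between -1.11 and -0.69, and the call was then lost for each of them except LKO replicate 2, with adjusted p-values from 0.0519 to 0.136. The 4 groups were fitted together, and leaving out a male mouse other than CRE- replicates 2 and 3 also lost it. The adjusted p-values were then 0.0506 to 0.0661, and why the call was lost was not tested.

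The libraries held between 33268424 and 56488920 counted reads. Male CRE- mice had 43560336, 49713515, 39577958 and 45016004 reads and male LKO mice 33351783, 47541412, 40043146 and 36908313. Female CRE- mice had 47314223, 56488920, 46228166 and 46367609 reads and female LKO mice 35086109, 39611392, 48265539 and 33268424. At this depth 80 of the 83 members passed the filter on low counts.

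Trends with exon length set a pair of libraries apart from the rest. Members are short, with a median exon length of 850.5 bases (322 to 5136) against 3491 bases for the other genes tested, so their levels were read beside the trend of each library with length. The slope of log2 level on log2 length over all genes but the members was 0.03, 0.01, 0.32 and -0.11 in male CRE- mice and -0.03, -0.04, 0.01 and -0.07 in male LKO mice. In females it was 0.01, -0.01, -0.04 and -0.13 in CRE- mice and 0.25, -0.06, -0.09 and -0.05 in LKO mice. Male CRE- replicate 3 and female LKO replicate 1 thus had the lowest short transcripts, and each lies in a different genotype of a different sex. Results are given with all 16 libraries and without these 2, a choice made after the values were seen.

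The liver label held in every library. Of 10 hepatocyte markers, 9 were in the table and none of these was at 0 in every library, with Alb, the gene of serum albumin, the most abundant at a mean of 70690.0 CPM. Their summed level was lowest in female LKO replicate 1 (61880 CPM) and highest in female CRE- replicate 4 (152800 CPM). In whole tissue, fewer cells of a type and less RNA per cell cannot be told apart.

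Ribosomal protein mRNAs took a larger share of the male LKO libraries than of the male CRE- libraries on average, with overlap between the groups. The members together held 1.67, 1.58, 0.907 and 2.13% of the reads in male CRE- mice and 3.62, 2.27, 2.0 and 2.34% in male LKO mice. In females they held 1.89, 1.90, 2.04 and 2.18% in CRE- mice and 1.72, 2.31, 2.7 and 2.74% in LKO mice. The lowest share was that of male CRE- replicate 3 and the highest that of male LKO replicate 1. Mean shares were 1.57 ± 0.504 against 2.56 ± 0.727% in males and 2.01 ± 0.135 against 2.37 ± 0.472% in females (CRE- against LKO, SD, n = 4). The difference was 0.988 percentage points in males and 0.365 in females, and 0.767 and 0.581 without the 2 libraries. With single mice left out it ran from 0.632 (without LKO replicate 1) to 1.18 in males and from 0.241 (without LKO replicate 4) to 0.581 in females. Without female LKO replicate 1, each of the remaining 3 female LKO shares was above each female CRE- share. The exact (Clopper-Pearson) 95% interval of the highest share ran from 3.62 to 3.63%, and such intervals cover counting error only. They treat every read as independent, although sequencing was paired-end, so they are too narrow where both reads of a pair were counted.

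In male livers every one of the 80 members tested had a higher fitted level in LKO than in CRE- mice, yet none passed the test across all genes. The median log2 fold change was 0.64, against -0.01 over all genes tested, and ran from 0.27 for Rplp2 to 0.95 for Rpl12. At an adjusted p under 0.05, edgeR called 0 of 80 members, limma-voom 0 and DESeq2 1, Rpl36a (adjusted p = 0.0332). The background of calls over all genes was 0.454% with edgeR, 0.884% with limma-voom and 2.03% with DESeq2. At an unadjusted p under 0.05, 56 of 80 members were higher by edgeR, against 4.79% of all genes, 0 were lower, against 4.74%, 71 of 80 by limma-voom, against 7.36% of all genes, and 59 of 80 by DESeq2, against 5.17% of all genes. In 11 of 80 members all 4 LKO values lay above all 4 CRE- values, against 3.57% of all genes. Among them were Rps3 and Rps6 of the 40S subunit and Rpl7, Rpl12, Rpl23, Rpl36a and Rpl41 of the 60S subunit.

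Single libraries carried a good deal of the male difference. Without male CRE- replicate 3 the median was 0.42, with 19 of 80 members past an unadjusted p of 0.05 on the higher side (3.26% of all genes). Without male LKO replicate 1 the median was 0.47, with 13 of 80 (3.61% of all genes). Without both male CRE- replicate 3 and female LKO replicate 1 the male median was 0.43. In that fit edgeR called 0 of 81 members (0.454% of all genes), 42 of 81 were higher at an unadjusted p under 0.05 (4.53% of all genes), and 11 of 81 had groups that did not overlap (4.87% of all genes). Those are the same 11 as above, since groups that are apart stay apart when a mouse is left out. With each male mouse left out in turn the male median lay between 0.42 and 0.84, and under the other scalings, filters and fits between 0.38 and 0.72.

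Across libraries, members were low where the length slope was high. The median deviation of the members from their own means was -0.46, -0.25, -1.19 and 0.09 on the log2 scale in male CRE- mice and 0.63, 0.15, -0.03 and 0.22 in male LKO mice. In females it was -0.04, 0.05, 0.15 and 0.40 in CRE- mice and -0.50, 0.18, 0.25 and 0.38 in LKO mice. The 2 libraries with the highest slopes, male CRE- replicate 3 and female LKO replicate 1, had the lowest members, and the part of the length trend in this was not tested. Over the 16 libraries the deviation and the slope correlated at -0.87 by Pearson and -0.80 by Spearman, and over the 14 without those 2 libraries at -0.65 and -0.70. These are descriptions over libraries of 4 groups, and slope and deviation come from the same reads.

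When the trend with length over all genes tested but the members was taken out of each library, the male groups no longer overlapped. The members' median deviation was then -0.40, -0.20, -0.37 and -0.08 in male CRE- mice and 0.50, 0.06, -0.01 and 0.01 in male LKO mice. Female values were -0.00, -0.05, 0.02 and 0.11 in CRE- mice and 0.12, -0.01, 0.08 and 0.32 in LKO mice, which overlapped. Every male LKO library lay above every male CRE- library, with LKO replicate 1 far above the rest. The male group means differed by 0.40, by 0.37 without CRE- replicate 3 and by 0.29 without LKO replicate 1, which lowered the LKO mean from 0.14 to 0.02 (mice left out of this value after it was seen). The male median log2 fold change was 0.43 with the trend removed, 0 of 80 members were called by edgeR (0.484% of all genes; smallest adjusted p = 0.0986, Rpl36a), and 57 of 80 were higher at an unadjusted p under 0.05 (4.8% of all genes). The trend differed over the other genes with at least 1 CPM in every library. Its slope there was 0.10, 0.00, 0.40 and -0.13 in male CRE- mice and -0.02, -0.04, 0.02 and -0.10 in male LKO mice. Removal of that trend was not tested.

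**Figure D1:**
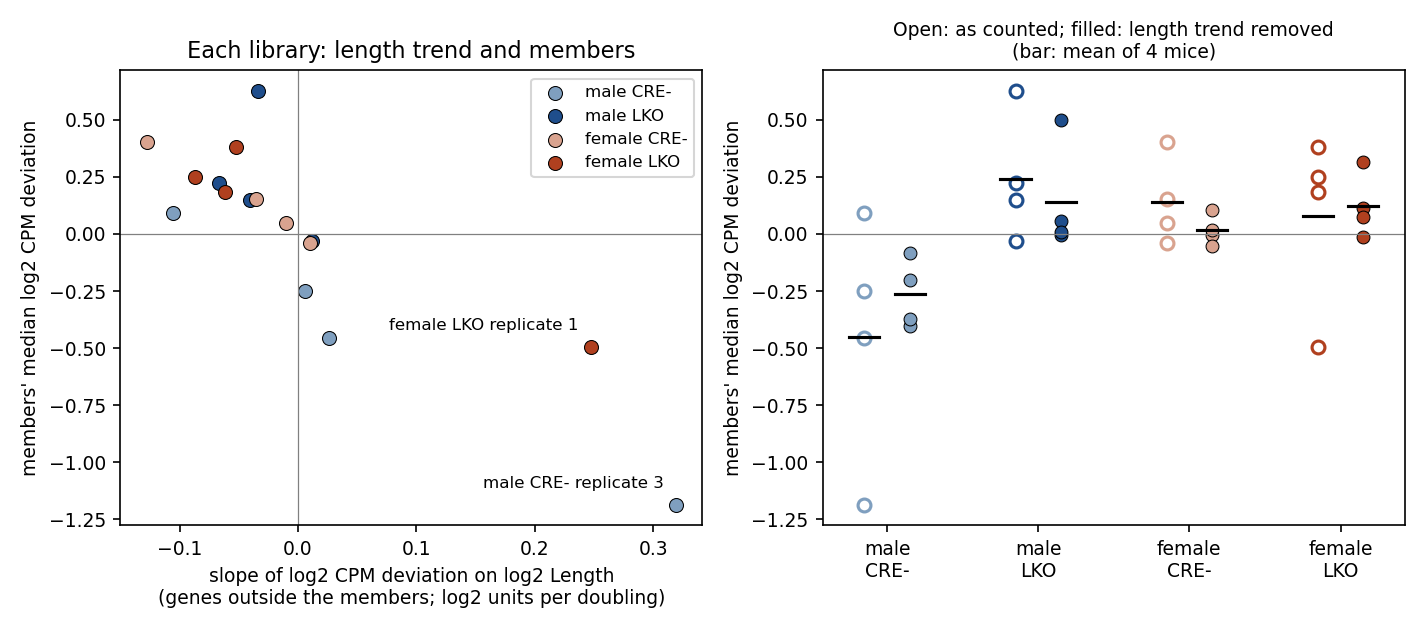
Left, slope of log2 level on log2 exon length in each library (x axis) against the median deviation of the ribosomal protein genes in log2 units (y axis), 1 point per mouse and colour by group. Right, the same deviation before (open) and after (filled) removal of the length trend by group with the mean as a bar: after removal the male LKO mice, from -0.01 to 0.50, lie above the male CRE- mice, from -0.40 to -0.08.

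Among genes of like exon length, members and other genes differed in males. Of genes under 1000 bases, the 51 members had a median male log2 fold change of 0.65 and the 1343 other genes 0.27. From 1000 up to 2000 bases the 22 members had 0.62 and the 2846 other genes 0.18, and from 2000 up to 4000 bases the 6 members had 0.60 and the 5301 other genes 0.04. The members' medians were nearly level across these classes while those of the other genes were lower in the longer classes. Length here is the annotated exon length of the gene, which can exceed that of the mRNA made in liver. Members in the longer classes may thus have shorter mRNAs than the other genes there, and this was not tested. Without the 2 libraries the members' medians were 0.43, 0.43 and 0.42 and those of the other genes 0.10, 0.05 and 0.01.

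The small subunit decodes the mRNA, and its 32 members had a male median log2 fold change of 0.64 (0.44 without the 2 libraries), with 21 of 32 higher at an unadjusted p under 0.05, against 4.79% of all genes. Rps6, the S6 kinase substrate whose phosphorylation is a common readout of mTORC1, was at 199.8, 248, 128 and 284 CPM in male CRE- mice and 441, 293, 296 and 305 CPM in male LKO mice. In female mice it was at 270.0, 259, 276 and 312 CPM in CRE- and 184, 292, 306 and 269 CPM in LKO. The male groups did not overlap, although CRE- replicate 4 came within a few units of LKO replicate 2, and the female groups did. Male means were 215 ± 67.3 and 334 ± 71.7 CPM and female means 279 ± 23.0 and 263 ± 54.7 CPM (CRE- and LKO, SD, n = 4). On the log2 scale the fitted difference in males was 0.63 (SE 0.23, adjusted p = 0.358 by edgeR), 0.44 without the 2 libraries and 0.47 with the length trend removed.

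Rps18, a protein of the small subunit head that the study used as its reference gene in qPCR, followed the rest of the set. It was at 235, 252, 138 and 321 CPM in male CRE- mice and 581, 347, 317 and 373 CPM in male LKO mice. In female mice it was at 329, 329.5, 358 and 399 CPM in CRE- and 222, 368, 399.5 and 460.5 CPM in LKO. In males 1 CRE- mouse overlapped the LKO range, and in females LKO replicate 1 was the lowest of all 8 mice. On the log2 scale the fitted difference in males was 0.78 (SE 0.27, adjusted p = 0.318) and the female one 0.03 (SE 0.27, adjusted p = 0.962), by edgeR. When those 2 libraries were left out, these were 0.58 and 0.23.

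Rps12, which lies near the beak of the small subunit, was at 148, 153, 78.2 and 208 CPM in male CRE- mice and 364, 229, 189 and 235 CPM in male LKO mice. In females it was at 198, 193, 211 and 218 CPM in CRE- and 141, 234, 275 and 323 CPM in LKO mice. In males the top CRE- mouse stood above LKO replicate 3, and in females 3 LKO mice lay above all CRE- mice with LKO replicate 1 below them. Its log2 fold change was 0.79 in males (SE 0.29, adjusted p = 0.348) and 0.25 in females (SE 0.29, adjusted p = 0.678), and 0.57 and 0.46 without the 2 libraries. Leaving out LKO replicate 4 instead took the female value to 0.09.

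Rps2, near the mRNA entry of the small subunit and the highest of its members per kilobase (765 CPM per kb), had the other pattern. It was at 529, 794, 402 and 827 CPM in male CRE- mice and 863, 744, 716 and 791 CPM in male LKO mice. Female mice had 789, 921, 915 and 1275 CPM in CRE- and 479, 792, 689 and 708 CPM in LKO mice. The male ranges overlapped widely, and in females 3 of 4 LKO mice were below every CRE- mouse while LKO replicate 2 was level with the lowest. The log2 fold change was 0.29 in males (SE 0.24, adjusted p = 0.737) and -0.55 in females (SE 0.24, adjusted p = 0.192). It was the 1 member lower in females at an unadjusted p under 0.05, and without the 2 libraries its values were 0.11 and -0.40.

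The large subunit forms peptide bonds, and its 45 members tested had a male median of 0.64 (0.43 without the 2 libraries), with 34 of 45 higher at an unadjusted p under 0.05, against 4.79% of all genes. Rpl12 sits at the base of the P-stalk. It was at 178, 186, 125 and 237 CPM in male CRE- mice and 545, 288, 261 and 308 CPM in male LKO mice. In female mice it was at 233, 230.4, 264 and 298 CPM in CRE- and 195, 316, 306 and 468 CPM in LKO. All male LKO mice were above all male CRE- mice, and so were 3 of the 4 female LKO mice above the female CRE- mice. The log2 fold change was 0.95 in males (SE 0.28, adjusted p = 0.193) and 0.33 in females (SE 0.28, adjusted p = 0.547). Without the 2 libraries it was 0.80 (adjusted p = 0.272) and 0.52 (adjusted p = 0.268), and leaving out female LKO replicate 4 instead took the female value to 0.09.

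Rpl36a, near the E site of the large subunit and coded on the X chromosome, had the smallest male p of all members. It was at 92.4, 98.7, 51.8 and 126 CPM in male CRE- mice and 255, 150.2, 139.8 and 164 CPM in male LKO mice. In females it was at 130.1, 144, 154 and 161 CPM in CRE- mice and 102, 161, 182 and 166 CPM in LKO mice. Male groups were apart, and female groups overlapped. Means were 92.3 ± 30.8 and 177 ± 52.7 CPM in males and 147 ± 13.5 and 153 ± 34.9 CPM in females (CRE- and LKO, SD, n = 4). On the log2 scale the fitted difference in males was 0.94 (SE 0.26, adjusted p = 0.153), and 0.73 (adjusted p = 0.177) without the 2 libraries.

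Rpl41 and Rpl39 code for very small basic proteins of the large subunit, and Rpl39 lines the exit tunnel. Rpl41 was at 194, 232, 90.1 and 238 CPM in male CRE- mice and 416, 352, 248 and 342 CPM in male LKO mice. Rpl39 was at 79.4, 80.3, 36.8 and 108 CPM in male CRE- mice and 202, 132, 104 and 135 CPM in male LKO mice. Rpl41 groups were apart, and for Rpl39 the top CRE- mouse lay just above the lowest LKO mouse. The male log2 fold changes were 0.85 (SE 0.33, adjusted p = 0.396) and 0.91 (SE 0.30, adjusted p = 0.290), or 0.61 and 0.67 without the 2 libraries. Female levels of Rpl41 were 268, 312, 329 and 409 CPM in CRE- and 152, 362, 402 and 512 CPM in LKO mice, and those of Rpl39 111, 126, 131 and 186 against 89.3, 141, 170.2 and 175 CPM, with overlap in both.

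Rpl10, which closes the late assembly of the large subunit, was its highest member per kilobase (770.5 CPM per kb). It was at 399.8, 510.0, 229 and 576 CPM in male CRE- and 837, 626, 572 and 662 CPM in male LKO mice, with CRE- replicate 4 just over the lowest LKO value. On the log2 scale the male difference was 0.65 (SE 0.26, adjusted p = 0.397), and 0.43 without the 2 libraries. Rpl11, which binds MDM2 when ribosome assembly is disturbed, was at 255, 282, 323 and 396 CPM in female CRE- mice and 152, 294, 288 and 274 CPM in female LKO mice. Between these groups the log2 fold change was -0.32 (SE 0.28, adjusted p = 0.565; -0.12 without the 2 libraries), and in males it was 0.57 (SE 0.28, adjusted p = 0.545; 0.34).

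Rpl22 lay near the middle of the male order and Rpl27 among its 4 smallest values. Rpl22, an RNA-binding protein of the large subunit with a paralog, Rpl22l1, was at 112, 147, 76.6 and 163 CPM in male CRE- mice and 243, 178, 155 and 182 CPM in male LKO mice. Rpl27 was at 115, 135, 70.1 and 154 CPM in male CRE- mice and 183, 149.6, 141 and 167 CPM in male LKO mice. For both genes the highest CRE- mouse overlapped the LKO range. Their male log2 fold changes were 0.60 (SE 0.22, adjusted p = 0.359) and 0.43 (SE 0.22, adjusted p = 0.556), and 0.42 and 0.24 without the 2 libraries. Female LKO and CRE- mice overlapped in both.

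The P-stalk recruits elongation factors to the ribosome, and its 3 members had a male median of 0.54 (0.39 without the 2 libraries), with 1 of 3 higher at an unadjusted p under 0.05, against 4.79% of all genes. Rplp0, the stalk's anchor, was at 319.8, 452, 289 and 549 CPM in male CRE- mice and 658, 565, 535 and 581 CPM in male LKO mice. Rplp1, a stalk dimer partner and the highest of all members per kilobase (929 CPM per kb), was at 284, 327, 169 and 469 CPM in male CRE- and 582, 447, 375 and 495 CPM in male LKO mice. Rplp2, the other dimer partner, was at 109.8, 139, 63.7 and 193 CPM in male CRE- and 195, 142, 116 and 159 CPM in male LKO mice. For Rplp0 and Rplp1 only CRE- replicate 4 reached into the LKO range, and Rplp2 levels were intermixed.

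Rplp0 had a fitted male log2 difference of 0.54 (SE 0.21, adjusted p = 0.402), Rplp1 0.60 (SE 0.30, adjusted p = 0.547) and Rplp2 0.27 (SE 0.34, adjusted p = 0.825). When those 2 libraries were left out, they were 0.40, 0.39 and 0.04, and the Rplp2 value became -0.02 when the length trend was removed as well. In female CRE- mice Rplp0 was at 478, 452, 465 and 659.8 CPM and in female LKO mice at 526, 547, 568 and 724 CPM, where 3 CRE- mice lay below all LKO mice and CRE- replicate 4 did not. Its female log2 fold change was 0.20 (SE 0.21, adjusted p = 0.635), or 0.27 without the 2 libraries, and with single female mice left out it ran from 0.09 to 0.37. Female Rplp1 was at 404, 446, 488 and 579.7 CPM in CRE- and 253, 462, 506 and 667 CPM in LKO, and female Rplp2 at 134, 132, 145 and 249 CPM in CRE- and 79.0, 185, 189 and 207 CPM in LKO, both with overlap.

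**Figure D2:**
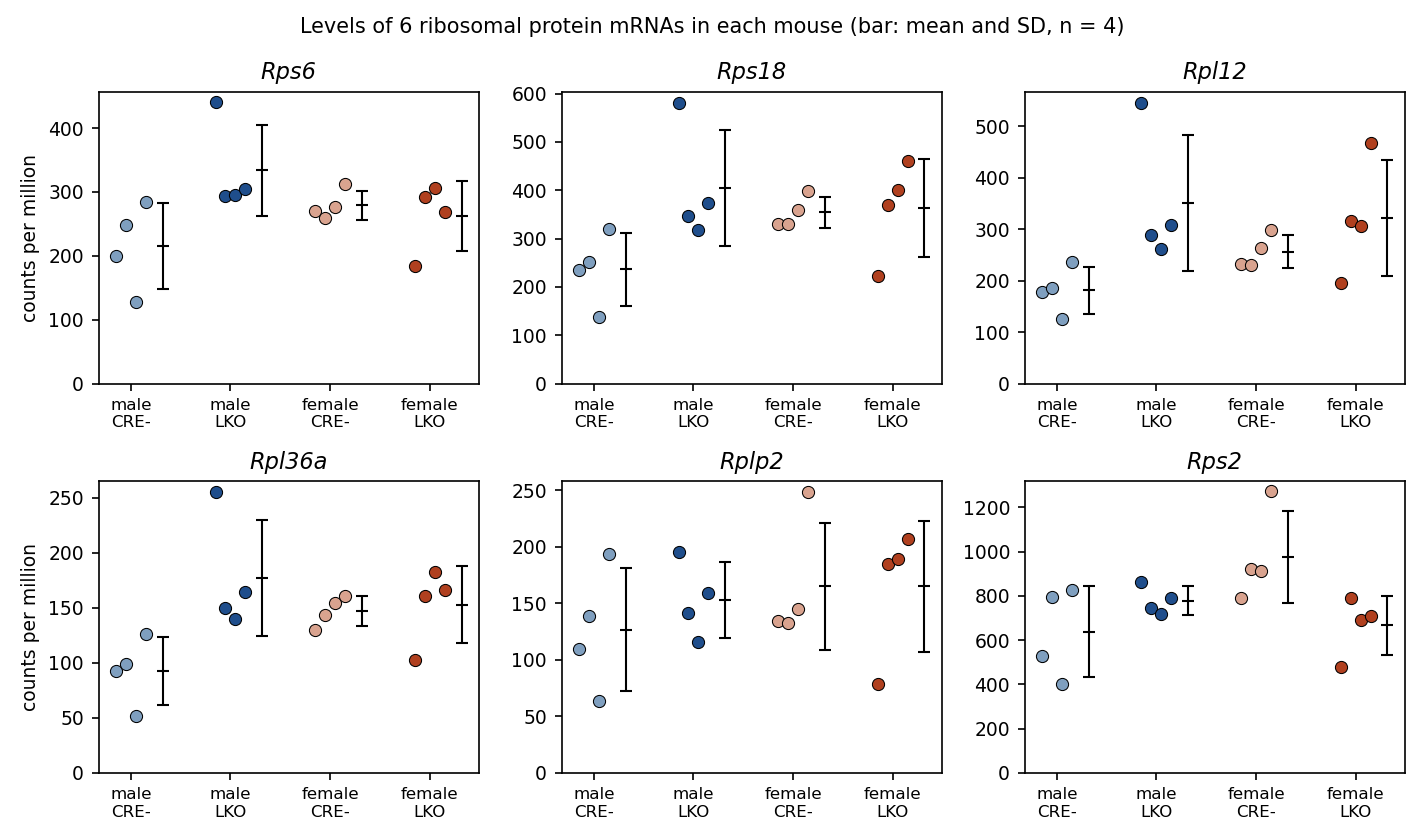
CPM of Rps6, Rps18, Rpl12, Rpl36a, Rplp2 and Rps2 in each mouse (points) by group, with the mean and SD as bars (n = 4). Male LKO mice lie above male CRE- mice without overlap for Rps6, Rpl12 and Rpl36a, and overlap them for Rps18, Rplp2 and Rps2.

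Symbols ending in l mark copies that are restricted to some tissues or diverge from the parent gene, and they were scarce or absent apart from Rps27l and Rps4l. Rpl10l, a testis copy of Rpl10, had 0 counts in every library, Rpl39l had at most 2 counts, and Rpl3l, the heart and muscle copy of Rpl3, had at most 52, so these 3 members were not tested in the fit of 16 libraries. Rpl3l passed the filter when the 2 libraries were left out, which made 81 members. Rpl6l, between 0.713 and 2.60 CPM, had a fitted male log2 difference of 0.41 (SE 0.34, adjusted p = 0.735). That value was 0.10 with the length trend removed and ran from 0.28 to 0.70 with single male mice left out. Rpl32l, between 0 and 1.28 CPM, had 0.72 in males (SE 0.80, adjusted p = 0.809) and 0.47 in females (SE 0.79, adjusted p = 0.790), too few reads to separate groups.

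Rps27l, a paralog of Rps27 that responds to p53, was at 126, 169.7, 53.2 and 145 CPM in male CRE- mice and 179.9, 203, 157 and 204 CPM in male LKO mice. Female levels were 121, 186, 197 and 164 CPM in CRE- and 56.1, 182, 163 and 144 CPM in LKO mice. Only CRE- replicate 2 overlapped the male LKO range, and among females LKO replicate 1 stood far below the rest. The log2 fold change was 0.59 in males (SE 0.34, adjusted p = 0.613; 0.33 without the 2 libraries) and -0.29 in females (SE 0.34, adjusted p = 0.672; -0.01).

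Rps4l, a copy of the X-linked Rps4x and the lowest 40S member per kilobase (9.05 CPM per kb), varied on its own. It was at 7.87, 8.11, 5.51 and 8.90 CPM in male CRE- mice and 8.70, 11.9, 14.7 and 16.5 CPM in male LKO mice. Female values were 12.2, 10.9, 5.03 and 6.95 CPM in CRE- mice and 1.81, 5.81, 9.47 and 1.85 CPM in LKO mice. Males overlapped in a single pair of mice, and in females LKO replicates 1 and 4 were the lowest. The log2 fold change was 0.77 in males (SE 0.44, adjusted p = 0.611) and -0.88 in females (SE 0.44, adjusted p = 0.263), or 0.63 and -0.59 without the 2 libraries. With single female mice left out, the female value ran from -1.48 (without LKO replicate 3) to -0.59. The difference between the sexes, -1.65 (SE 0.62, adjusted p = 0.241), was the largest in size of any member tested.

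In female livers the members' median lay near that of all genes with TMM factors, and whether it was above or below it depended on the fit. It was -0.03 with TMM factors (0.04 over all genes), 0.02 with upper-quartile factors (0.07) and 0.01 over genes with at least 10 counts in every library (0.03). With library totals alone it was 0.25 (0.30 over all genes), and with limma-voom it was 0.11 (-0.02 over all genes). With TMM, 28 of 80 members were above 0. At an adjusted p under 0.05, edgeR called 0 of 80 members (4.24% of all genes), DESeq2 0 (10.8% of all genes) and limma-voom 0 (11.8% of all genes). At an unadjusted p under 0.05, edgeR had 0 of 80 higher (12.3% of all genes) and 1 lower, Rps2 (9.14% of all genes). In no member did the female groups stand apart, with LKO higher in 0 of 80 (5.2% of all genes) and lower in 0 of 80 (6.42% of all genes).

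Single female mice moved these values in both directions. Without LKO replicate 4 the female median was -0.12 with 15 of 80 members above 0, without CRE- replicate 4 it was 0.10 with 60 of 80, and without LKO replicate 1 it was 0.14 with 73 of 80. Without the 2 libraries the female median was 0.14, against 0.02 over all genes, with 74 of 81 members above 0, and edgeR called 0 of 81 (2.13% of all genes). At an unadjusted p under 0.05, 2 of 81 were then higher, Rpl12 and Rps12 (10.1% of all genes), and in 5 of 81 the 3 remaining LKO mice lay above all CRE- mice (7.41% of all genes): Rpl12, Rpl23, Rps7, Rps12 and Rps24. With the length trend removed and all libraries kept, the median was 0.10, against 0.02 over all genes, and 66 of 80 were above 0. In that fit edgeR called 0 of 80 (6.7% of all genes) and 2 of 80 were higher at an unadjusted p under 0.05 (13% of all genes). By subunit the female medians were -0.02 for 40S, -0.05 for 60S and -0.00 for the P-stalk, and 0.20, 0.11 and 0.25 without the 2 libraries.

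Whether the LKO effect differed between the sexes was tested as an interaction. In the main fit every member had a lower female than male log2 fold change, with a median difference of -0.69 against 0.04 over all genes. Some other fits had a few members above 0: 3 of 81 without the 2 libraries, 5 of 80 with the length trend removed and 2 of 80 with limma-voom. None of 80 passed at an adjusted p under 0.05 with edgeR (0% of all genes), with DESeq2 (2.27% of all genes) or with limma-voom (0.173% of all genes), and at an unadjusted p under 0.05 by edgeR 20 of 80 were lower (6.68% of all genes) and 0 higher (9.28%). When those 2 libraries were left out, the median difference was -0.28, with 0 of 81 called (0% of all genes) and 0 of 81 lower at an unadjusted p under 0.05 (4.26% of all genes). With the length trend removed it was -0.31, with 0 of 80 called (0.0119% of all genes) and 6 of 80 lower at an unadjusted p under 0.05 (6.69% of all genes). The edgeR count of members lower at that threshold moved with single mice. It was 1 of 80 without male CRE- replicate 3 (731 of 17065 genes) and 56 of 80 without male CRE- replicate 4 (1275 of 17075 genes). It was 2 of 80 without male LKO replicate 1 (1090 of 17070 genes) and 1 of 80 with library totals alone (472 of 16742 genes).

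**Figure D3:**
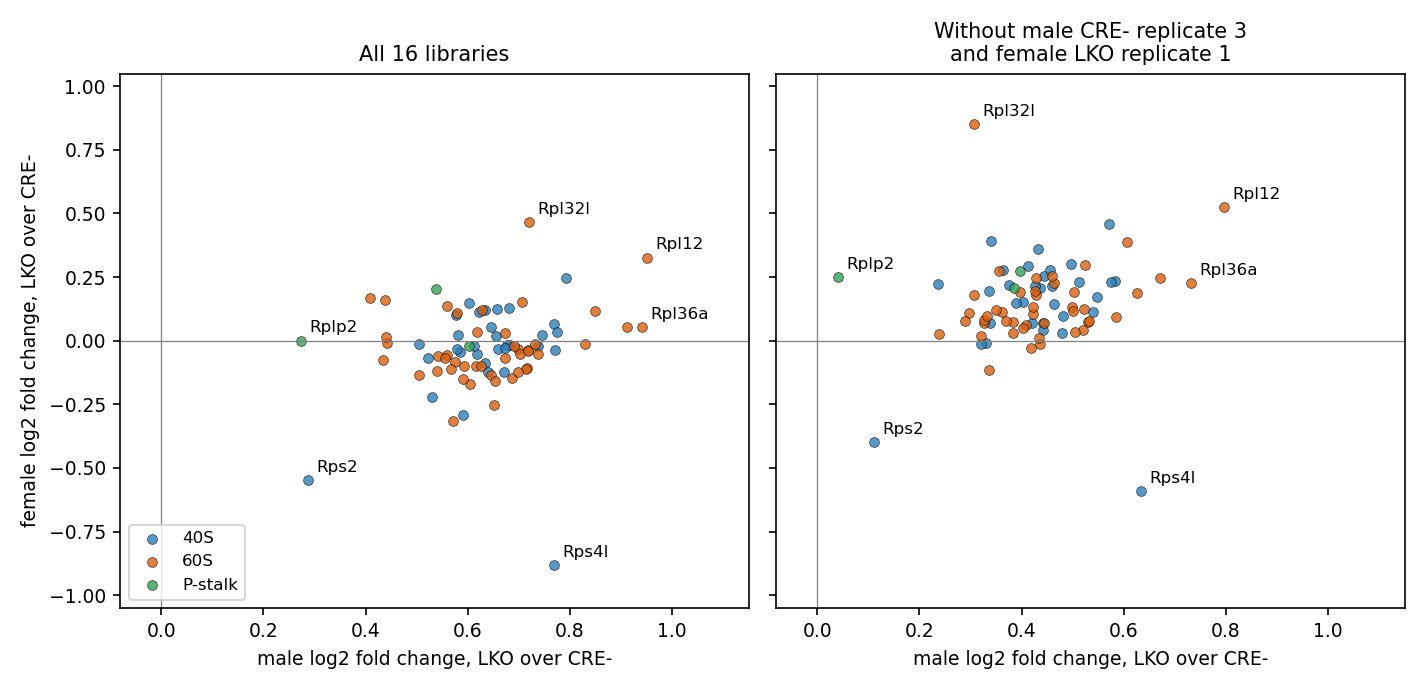
Male (x axis) and female (y axis) log2 fold change, LKO against CRE-, of each member, coloured by subunit, with all 16 libraries (left) and without male CRE- replicate 3 and female LKO replicate 1 (right). Every point on the left lies above 0 on the male axis, while the female median is -0.03 with TMM, against 0.04 over all genes. It is also below the median of all genes under upper-quartile or total scaling, where both are above 0. It is above it with limma-voom (0.11 against -0.02) and with the length trend removed (0.10 against 0.02). On the right the medians are 0.43 and 0.14.

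Members moved together from mouse to mouse. Over the 16 libraries, 72 of 80 members had a correlation above 0.9 with the median of the others, with a median of 0.968, the highest for Rps25 (0.993) and the lowest for Rps4l (0.174). Of the other genes tested, 0.288% were above 0.9 with the members' median, and of the 1343 others under 1000 bases 1.49%. Over the 14 libraries without male CRE- replicate 3 and female LKO replicate 1, chosen after seeing the data, it was 64 of 80 members with a median of 0.945, against 0.054% of the other genes and 0.149% of the short ones. After each library's member median was subtracted, the SD over libraries had a median of 0.138 on the log2 scale, from 0.0534 for Rps25 to 0.934 for Rps4l, and exceeded 0.3 in 5 members. The 10 members with the most reads, Rps2, Rpl4, Rpl10, Rpsa, Rplp0, Rplp1, Rps3, Rpl7a, Rpl13a and Rpl7, held 24.4% of all member reads, so the summed share does not rest on a few genes. Reads that map to several places were not counted, and members with many processed pseudogenes or close paralogs may have lost reads to this, so levels between members are uncertain.

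Outside the members, the 6 genes whose levels followed the members' median most closely over the 16 libraries were Rps3a1 (Pearson r = 0.988), Eef1b2 (0.982), Fau (0.961), Clta (0.960), Aimp1 (0.954) and Trappc6a (0.952). Pseudogenes and symbols beginning with Gm were left out of this ranking. Rps3a1 and Fau code for small-subunit proteins that the symbol rule passes over, Eef1b2 for an elongation factor subunit, Clta for a clathrin light chain, Aimp1 for a scaffold of the aminoacyl-tRNA synthetase complex and Trappc6a for a vesicle tethering subunit. Rps3a1 itself had 0.63 in males (adjusted p = 0.377) and -0.02 in females (adjusted p = 0.973), or 0.45 and 0.14 without the 2 libraries. Over the 14 libraries without the 2, r was 0.968, 0.968, 0.90, 0.920, 0.884 and 0.886. These are descriptions across libraries that share the groups.

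A TOP-like start was more frequent among members than among other genes. The motif searched on the transcribed strand was a C at an annotated first base followed by at least 4 bases that are C or T. It was found in 27 of 80 members (33.8%) and in 826 of 16644 other genes tested (4.96%), and, at the outermost start alone, in 24 members (30%) and 2.9% of the other genes. The annotated first base may differ by a few bases from the start used in liver, so a missing match says only that the letters are not there. Members with the run had median log2 fold changes of 0.67 in males and -0.02 in females (27 members), and those without it 0.62 and -0.04 (53 members).

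The starts of 9 members described above are printed so that the tract can be seen. Members with a run are over-represented among these 9, since over all members tested it was found in 27 of 80. Each start has 10 bases before and 20 bases from the annotated first base in GRCm39, with the pyrimidine run in capitals where there is one. Rps6 lies at chr4:86775585-86775614 (minus strand), Rps12 at chr10:23664278-23664307 (minus), Rps18 at chr17:34174620-34174649 (minus), Rpl10 at chrX:73314453-73314482 (plus), Rpl39 at chrX:36348833-36348862 (minus) and Rplp2 at chr7:141027554-141027583 (plus). Without a run at the annotated base are Rpl12 at chr2:32851714-32851743 (plus), Rpl36a at chrX:133486393-133486422 (plus) and Rps2 at chr17:24939027-24939056 (plus).
Rps6: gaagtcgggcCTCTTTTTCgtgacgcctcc
Rps12: ccttcctgctCTCTCTTCCTgtctgaatat
Rps18: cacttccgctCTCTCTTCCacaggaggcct
Rpl10: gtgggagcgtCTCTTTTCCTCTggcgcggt
Rpl39: taatcgcgttCTTCCggtcccggcctttct
Rplp2: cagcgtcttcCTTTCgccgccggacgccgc
Rpl12: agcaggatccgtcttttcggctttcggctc
Rpl36a: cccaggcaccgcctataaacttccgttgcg
Rps2: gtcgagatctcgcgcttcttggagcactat

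Rps6 and Rpl12 are both among the members whose male groups did not overlap, and they differ in the run at the annotated base. The pair of qPCR primers for the reference gene Rps18 is shown because that gene is itself a member. In GRCm39 the forward primer, 23 bases, matched the gene at chr17:34171263-34171285 (minus strand, as the gene) and the reverse primer, 21 bases, at chr17:34171057-34171077 (plus strand), each inside an exon with 1 match in the gene.
Rps18 forward: TTCTGGCCAACGGTCTAGACAAC
Rps18 reverse: CCAGTGGTCTTGGTGTGCTGA

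Ribosomal proteins whose symbols fall outside the rule were followed as a list of 6 genes, and medians of this and the further lists are with TMM factors. Among them, Fau makes a ubiquitin-like fusion of a ribosomal protein, Rack1 is a signalling scaffold on the small subunit, and Rpl22l1, Rpl7l1 and Rpl36al are paralogs. All 6 were above 0 in males, with a median of 0.57 (0.33 without the 2 libraries), and edgeR called 0 of 6, with 2 higher at an unadjusted p under 0.05 (4.79% of all genes), Rack1 (0.65) and Rpl22l1 (0.78). In females the median was -0.27 (-0.04), 0 were called and 1, Rpl7l1 (-0.36), was lower at an unadjusted p under 0.05 (9.14% of all genes).

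Elongation factors and other mRNAs known to carry a TOP tract made a list of 22 genes. In males 19 of 22 were above 0 with a median of 0.35 (0.23 without the 2 libraries, 0.16 with the length trend removed). None was called by edgeR, and 7 of 22 were higher at an unadjusted p under 0.05 (4.79% of all genes), among them Gas5, a snoRNA host transcript (0.87, adjusted p = 0.316), Eef1b2 (0.68, adjusted p = 0.321) and Npm1, a nucleolar chaperone (0.52, adjusted p = 0.319). Eef1a1, which brings aminoacyl-tRNA to the ribosome, was the most abundant gene of the list and had 0.21 (SE 0.18, adjusted p = 0.749). In females the median was -0.11 (-0.02 without the 2 libraries), 0 of 22 were called and 1 was higher at an unadjusted p under 0.05, against 12.3% of all genes.

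Ribosome biogenesis was followed with 53 genes for RNA polymerase I, snoRNP proteins and assembly factors. In males 42 were above 0 with a median of 0.23, and in females 44 with a median of 0.23 (0.19 and 0.17 without the 2 libraries). No gene was called by edgeR in either sex, and at an unadjusted p under 0.05 it had 7 of 53 higher in males, against 4.79% of all genes, and 4 of 53 in females, against 12.3%, with 0 lower in both. Ncl, the nucleolar protein nucleolin and the most abundant gene of the list, had -0.14 in males (SE 0.22, adjusted p = 0.872).

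Regulators of TOP mRNAs and ribosomal genes gave 22 genes, with medians of -0.05 in males and 0.02 in females. Without the 2 libraries both signs turned (0.03 and -0.02), and with the length trend removed the medians were 0.06 and 0.02. By edgeR 0 of 22 were called in males (0.454% of all genes) and 1 of 22 in females (4.24% of all genes). An unadjusted p under 0.05 was reached by 2 genes in males, 1 higher (4.79% of all genes) and 1 lower (4.74%). In females it was reached by 2 genes, both higher (12.3% of all genes). Myc, the transcription factor that drives ribosome production, was at 4.66, 2.98, 3.23 and 3.10 CPM in female CRE- mice and 12.6, 9.62, 11.7 and 24.5 CPM in female LKO mice. In males it was at 5.66, 10.2, 8.01 and 5.39 CPM in CRE- and 19, 4.96, 3.93 and 5.83 CPM in LKO mice. All female LKO mice were above all female CRE- mice, and in males LKO replicate 1, which also had the highest members, stood alone. Myc rose by 2.06 on the log2 scale in females (SE 0.45, adjusted p = 0.0231; 2.14 and 0.0390 without the 2 libraries), and the sex difference did not pass (1.86, adjusted p = 0.213).

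Eif4ebp1, the mTORC1 substrate that holds back cap-dependent translation, was at 29.7, 28.8, 14.4 and 37.6 CPM in male CRE- mice and 77.7, 58.7, 44.7 and 63.2 CPM in male LKO mice, with no overlap. On the log2 scale the male difference was 1.14 (SE 0.30, adjusted p = 0.119), and it was called without the 2 libraries (0.92, adjusted p = 0.0468). In females it was at 27.8, 28.0, 34.3 and 36.4 CPM in CRE- and 20.0, 52.9, 48.9 and 39.9 CPM in LKO mice, with 0.35 (adjusted p = 0.534). Rptor, the mTORC1 scaffold, was the 1 regulator lower in males at an unadjusted p under 0.05 (-0.46, adjusted p = 0.405).

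Mitochondrial ribosomal proteins, which are built into a separate ribosome inside the mitochondrion and whose genes had a median exon length of 1506 bases, served as a comparison of 78 genes. In males 77 of 78 were above 0 with a median of 0.27, 0 were called by edgeR and 1 was higher at an unadjusted p under 0.05 (4.79% of all genes). In females 0 of 78 were above 0 with a median of -0.37, 0 were called and 15 of 78 were lower at an unadjusted p under 0.05, against 9.14% of all genes. Without the 2 libraries the medians were 0.09 and -0.16, and with the length trend removed 0.11 and -0.28. The sex difference had a median of -0.64, with 0 called and 26 of 78 lower at an unadjusted p under 0.05, against 6.68% of all genes. That median was -0.26 without the 2 libraries and -0.38 with the length trend removed.

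Markers of other liver cells were followed as well, and their part in the members' values was not tested. In males, 0 of 5 erythroid markers were above 0, with a median of -1.27 (-1.31 without the 2 libraries) and 4 lower at an unadjusted p under 0.05 (4.74% of all genes) but 0 called. Their summed level was 677, 574, 503 and 929.7 CPM in CRE- and 176, 360.2, 286 and 439.9 CPM in LKO mice, with Hbb-bs, a beta-globin, the most abundant gene (269 CPM on average). All male LKO mice were below all CRE- mice, and LKO replicate 1, with the highest members, was the lowest. The 6 of 7 neutrophil markers tested had a male median of -2.24 (-2.62 without the 2 libraries), with 5 lower at an unadjusted p under 0.05 and 0 called, and summed to 89.7, 20.1, 17.4 and 176 CPM in CRE- and 25.4, 16.4, 12.6 and 11.7 CPM in LKO mice, led by S100a9.

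In females, 7 macrophage, neutrophil and proliferation markers rose by the edgeR test with all 16 libraries, where 4.24% of all genes were called, and 1 was called without the 2 libraries. All 9 macrophage markers were above 0 with a median of 1.40, and 1 was called, Adgre1 (adjusted p = 0.0452; 0 called without the 2 libraries). They summed to 882, 644, 716 and 1216 CPM in CRE- and 4004, 1178, 2521 and 1539 CPM in LKO mice, led by Cd5l, with LKO replicate 1 the highest and LKO replicate 2 below CRE- replicate 4. All 6 neutrophil markers tested were above 0 with a median of 3.37, 2 of them called, Mpo and Ngp (1 called without the 2 libraries), and summed to 36.8, 19.7, 15.8 and 16.8 CPM in CRE- and 131, 42.7, 63.2 and 606 CPM in LKO mice. Of 6 proliferation markers 4 were called, Top2a, Ccnb1, Cdk1 and Birc5 (0 without the 2 libraries), with a median of 2.08. They summed to 9.60, 8.20, 4.88 and 17.5 CPM in CRE- and 78.6, 15.2, 31.8 and 32.5 CPM in LKO mice, led by Mki67. In males the macrophage and proliferation lists had medians of 0.01 and 0.09 (-0.26 and 0.27 without the 2 libraries), with 0 called and 0 at an unadjusted p under 0.05.

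Erythroid markers had the other sign in females. All 5 were above 0 with a median of 0.58 (0.77 without the 2 libraries), with 0 called by edgeR and 0 at an unadjusted p under 0.05. They summed to 482, 439.9, 347 and 694 CPM in CRE- and 371, 768, 259 and 1511 CPM in LKO mice, which overlapped. The sex difference of this list had a median of 1.85, with 0 of 5 called and 4 higher at an unadjusted p under 0.05, against 9.28% of all genes.

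The hepatocyte markers had medians of -0.00 in males and -0.69 in females (-0.10 and -0.54 without the 2 libraries), with 0 of 9 called in either sex and 1 and 4 lower at an unadjusted p under 0.05, against 4.74% and 9.14% of all genes. They summed to 80070, 107300, 113800 and 109600 CPM in male CRE-, 75040, 88340, 104200 and 91300 CPM in male LKO, 133500, 127300, 132800 and 152800 CPM in female CRE-, and 61880, 104700, 104800 and 83200 CPM in female LKO mice. No female LKO mouse reached the female CRE- range. Medians of the remaining lists, for males and then females, were -0.07 and 0.23 for T and NK cells, 0.15 and 0.49 for B and plasma cells, 0.23 and 0.52 for endothelium, -0.56 and -0.06 for stellate cells, and 0.50 and 0.24 for cholangiocytes. Without the 2 libraries they were -0.35 and 0.14, 0.14 and 0.50, 0.24 and 0.36, -0.07 and -0.15, and 0.37 and 0.12. In male CRE- replicate 3 the stellate list summed to 576 CPM against 293 to 377 CPM in the other male CRE- mice. In these 5 lists 1 gene was called by edgeR, the endothelial cadherin Cdh5 in females (0.79, adjusted p = 0.0250), where 4.24% of all genes were called. At an unadjusted p under 0.05 there were 0 in males and 4 in females, all higher (12.3% of all genes). No marker tested was at 0 in every library.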

How the data were processed

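Poly-A RNA of 16 livers was sequenced. Per the submitters' processing notes the authors aligned reads to GRCm39 (STAR 2.7.1a) and made raw counts per gene with featureCounts (Subread 2.0.6); the deposited counts and the deposited exon length in bases (other, from featureCounts) were used as they are. In R 4.3.3, edgeR 4.0.16 (TMM, filterByExpr with a minimum count of 10, quasi-likelihood F test, Benjamini-Hochberg over all genes tested, threshold 0.05) fitted the 4 groups together. DESeq2 1.42.0 and limma 3.58.1 (voom with sample weights) were alternatives. Log2 CPM used a prior count of 2. The length trend was a lowess curve (span 0.3) per library over genes that are not members, entered as an offset. Alternatives were other scalings and filters, each sex alone, a replicate block, each mouse left out, and 2 libraries left out. Code was tested on simulated data. Named members are the 4 with the largest and smallest fold changes per sex, the highest and lowest per kilobase in each subunit, Rps18, Rps6, Rpl22 and symbols ending in l; the members that did not overlap were named after their values were seen. Starts and coordinates come from the GRCm39 annotation. Members and lists were chosen with earlier results of these data known.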

Additional observations from a re-analysis of the deposited data

Results flagged for a closer look

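Each measure was examined in each of the 4 groups of 4 mice, which gave 96 comparisons over the same 16 mice. In 9 of them 1 mouse lay far from the other 3, past Dixon's 95% value for the share of the range that its gap to the nearest takes. Chance reaches that value in about 1 in 20 groups, a rate that holds for separate measures, and many of these move together. In male CRE- mice, Gcgr was 127.3 CPM in replicate 3 and 189.6 to 192.9 CPM in the others. In male LKO mice, replicate 1 had the highest member median deviation with the length trend removed, 0.4987 against -0.01 to 0.06, the highest Rpl12, 545.3 CPM against 261 to 308, and the highest Rps6, 441.0 CPM against 293 to 305. In female CRE- mice, replicate 4 had the highest Rplp0, 659.8 CPM against 452 to 478, and the highest Rplp2, 248.8 CPM against 132 to 145. In female LKO mice, replicate 1 had the highest length slope, 0.2471 against -0.09 to -0.05, and the lowest Rpl11, 152.3 CPM against 274 to 294, and Rplp2, 79.02 CPM against 185 to 207. What set these mice apart was not tested.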

How the results depend on the processing

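No alternative gave a member called in females or in the sex difference. In males the 1 call came from DESeq2 (Rpl36a), which called more genes in all, 339 against 76 with edgeR in males and 1809 against 710 in females, where limma-voom called 1976, each sex fitted alone 119 and the fit without the 2 libraries 361. The male median lay between 0.42 and 0.84 with single male mice left out and between 0.38 and 0.72 otherwise. The female median lay between -0.12 and 0.14 with single female mice left out and between -0.03 and 0.25 otherwise. Of the values for named members, 608 kept direction and call, and 5 reversed: Rplp2 in males was -0.024 without the 2 libraries and with the length trend removed (chosen after seeing the data), and Rps18 in females ran from -0.094 (without LKO replicate 4) to 0.23 (without LKO replicate 1) over single female mice left out. Gcgr in females kept its direction but lost its call with upper-quartile factors (-0.87, adjusted p = 0.0707), library totals (-0.67, 0.0852), no filter (-0.92, 0.0545), at least 10 counts in every library (-0.89, 0.0506) and each sex alone (-0.91, 0.132), and with single mice left out it ran from -1.11 to -0.69. Why the call was lost was not tested. Among the edgeR alternatives that kept it were the length trend removed (-0.91, adjusted p = 0.0304) and a replicate block (-0.97, 0.0266). The fit without the 2 libraries kept it too (-0.69, 0.0370). The genotype difference in length slope moved from -0.09 to -0.01 in males and from 0.05 to -0.03 in females without the 2 libraries.

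The labels do not say that mice with the same replicate number share anything. The numbers are those of the sample titles. In male CRE- and female LKO mice some differ from the library numbers in the column headers, and pairs by those library numbers were not examined. Over 24 same-number pairs from different groups, deviations from the group means correlated between -0.25 and 0.332, 11 of them over 0.1, and not every mouse correlated best with its own number, so whether the numbers mark shared handling was not settled and the main fit had no block. With a replicate block, 63 genes were called in males and 1244 in females, 0 of them members, with member medians of 0.68 and -0.03. With the replicate block and the length trend removed these were 110 and 1749 genes, 0 members, and 0.43 and 0.10.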
